A study of Mus musculus with 8 samples.

Results

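Core pluripotency factors are the transcriptional regulators and associated proteins that mouse embryonic stem cells (ESCs) share between their naive and primed states. The 10 genes described here were Pou5f1, Sox2, Nanog, Sall4, Sall1, Lin28a, Utf1, Dppa4, Dppa2 and Zfp281, out of 37263 genes in the count tables, and each was found by its Ensembl identifier through its symbol in GENCODE M21. They were chosen by this shared role with earlier results of the same libraries known. The measured values that chose them were their levels over time and, for Sall4, its ratio of vitamin C (vitC) to control medium. Their values are therefore given as a description, without p-values. All 10 were among the 14931 genes with 1 CPM (counts scaled to a common library total) or more in 2 or more libraries, and the levels below are CPM scaled further with TMM factors.

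RNA was sequenced from E14 cells, a mouse ESC line of strain 129/Ola grown without feeders and with LIF, taken 4, 16, 24 and 32 hr into the move out of serum and into 2i. 2i is serum-free and holds LIF, the MEK inhibitor PD0325901 and the GSK3 inhibitor CHIR99021, and the inhibitors' concentrations are in mM in the sample labels and in µM in the study's methods. One course was run in 2i alone and the other in 2i with 17 µM vitC added, so that all groups shared LIF and both inhibitors. Each of the 8 combinations was 1 library of 1 cell line, no serum library was analysed here, and differences between single libraries have no replicate check.

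In the ESC network POU5F1 (OCT4) and SOX2 bind DNA together and activate each other's genes, and NANOG holds cells away from differentiation. SALL4 and its relative SALL1 are zinc finger proteins of this network that can recruit the NuRD repressor complex. LIN28A is an RNA-binding protein that blocks the maturation of let-7 microRNAs, and UTF1 is a chromatin-associated factor whose gene has a well-known POU5F1 and SOX2 site in its 3′ enhancer. DPPA2 and DPPA4 act as a dimer at CpG-rich promoters and are needed for the 2-cell-like state, and ZFP281 is a zinc finger factor linked to the exit from naive pluripotency. In 2i the naive state is stabilized and DNA methylation falls, and vitC is a cofactor of the TET dioxygenases.

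Library totals ranged from 12940716 to 18434932 counts in 2i and from 4753528 to 13157570 with vitC, and 3 counts, the smallest level read as detected, corresponded to 0.163 to 0.631 CPM. Lars2, Gm23935 and ENSMUSG00000093077 took an uneven share of the counts, 0.0277%, 0.206%, 5.92% and 0.564% in 2i at 4, 16, 24 and 32 hr and 0.0113%, 7.11%, 6.37% and 4.21% with vitC. Lane 8 held the libraries of 4 and 24 hr, and lane 7 those of 16 and 32 hr. A lane effect and a time effect cannot be told apart where 16 or 32 hr is set against 4 or 24 hr. Comparisons of 24 with 4 hr and of 32 with 16 hr, and every vitC pair, lay within a lane. Summed ESC markers were at 1160 to 1470 CPM in 2i and 1110 to 1240 CPM with vitC. The vitC libraries of 16 and 24 hr had the lowest totals (6969300 and 4753528 counts) and the highest mitochondrial shares (0.951% and 1.496%, against 0.47% to 0.734% in the others). The 10 feeder fibroblast markers summed to 135 to 392 CPM in 2i and 120 to 705 CPM with vitC, which was mostly Col1a1 (47.6 to 419 CPM) and Col1a2 (39.4 to 234 CPM). Of the other feeder markers, Pdgfrb was at 7.45 to 23.6 CPM, Postn at 0.97 to 14.6, Dcn at 0.32 to 3 and Lum at 0 to 0.43. Col5a2 was at 9.09 to 12.5 CPM, Col3a1 at 4.25 to 9.58 and Twist2 at 0.15 to 2.69. Thy1 was lower at 32 hr than at 4 hr, at 1.63 against 6.52 CPM in 2i and 1 against 2.84 with vitC. The 10 primitive endoderm markers summed to 67.4 to 121 CPM in 2i and 83.9 to 156 CPM with vitC, with Lama1 at 49.7 to 122 CPM, Dab2 at 5.47 to 19.7, Pdgfra at 2.31 to 10.2, and Gata4, Gata6 and Sox17 at most at 4.72. Trophoblast markers summed to 20.2 to 38.1 CPM, mesoderm markers to 12.7 to 22.6 and neuroectoderm markers to 190 to 448. At 24 hr against 4 hr, 11.5% of all genes were called higher and 8.98% lower (edgeR). Of the tested markers, 4 of 9 feeder and 3 of 7 primitive endoderm ones rose and 0 fell, and 3 of 3 neuroectoderm ones fell. Of 6 trophoblast markers 0 rose and 2 fell, of 3 mesoderm markers 1 rose and 1 fell, and of 8 ESC markers 1 rose and 1 fell. With vitC 0 markers passed in the edgeR fit, beside 0.107% of all genes called higher and 0.0603% lower. Their median log2 fold change with vitC was 0.37 for feeder, 0.18 for primitive endoderm and 0.07 for trophoblast markers. It was -0.03 for mesoderm and -0.13 each for neuroectoderm and ESC markers, beside -0.02 for all genes. The part of these markers in the values below was not tested.

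Length decides how many reads an mRNA of a given abundance yields, so levels between genes were compared as RPKM (CPM per 1 kb of merged exons). Nanog was the most abundant with a mean of 192 RPKM over the 8 libraries, at percentile 99.2 of 13137 protein-coding genes, followed by Pou5f1 with 159, Lin28a with 119 and Sox2 with 110 RPKM. Sall4 (33.7 RPKM) and Zfp281 (28.8) formed a middle pair, at percentiles 89.2 and 87.2. Sall1 (7.26), Dppa4 (6.11), Dppa2 (5.11) and Utf1 (4.57) were near the middle of the expressed genes, between percentiles 43.9 and 55.3. Neighbours in this order overlapped in range across the libraries except Sox2 and Sall4, and Zfp281 and Sall1. The ranges ran from 155 to 254 RPKM for Nanog and 125 to 225 for Pou5f1, and the order of the first 4 changed with time. At 4 hr Pou5f1 ranked first in both media, and Nanog ranked first at every later time. The gap between Sox2, with a lowest value of 58.1 RPKM, and Sall4, with a highest of 55.7, was small but was not crossed.

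**Figure D1:**
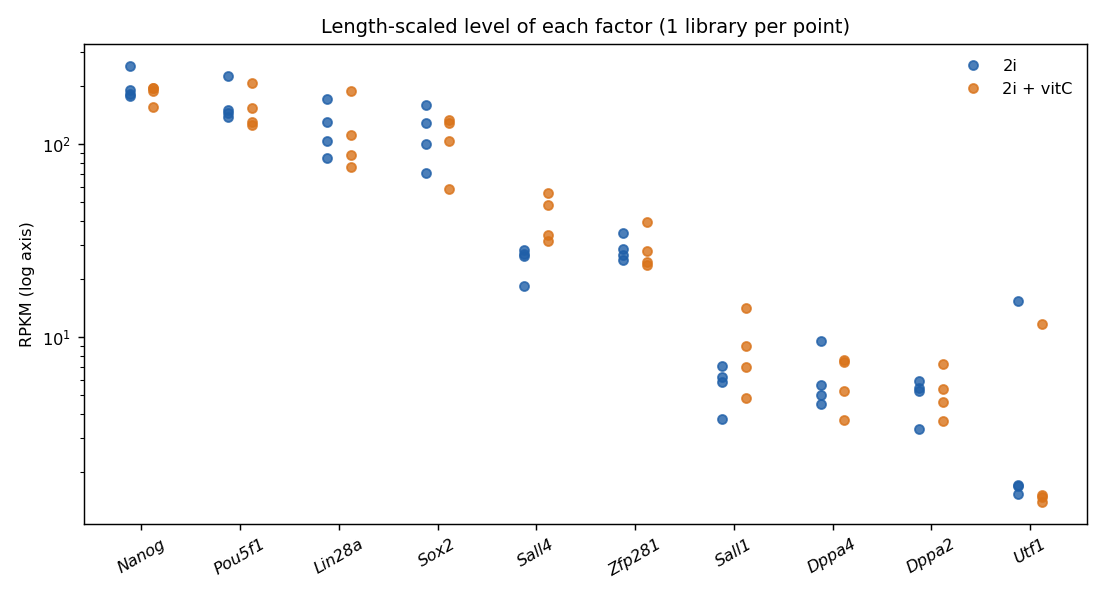
Length-scaled level of the 10 factors (RPKM, log axis), with 1 point per library, 4 in 2i and 4 with vitC, genes in order of their mean. Nanog, Pou5f1, Lin28a and Sox2 lie above the other 6 genes in every library, and the 4 hr libraries give the separate high points of Utf1.

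The count of a gene is uncertain where its sequence occurs elsewhere. Of all 50-base stretches (the read length) in the annotated transcripts, 31.3% of those of Dppa4 and 29.1% of those of Dppa2 also occurred in transcripts of other genes, mainly the processed pseudogenes Gm14058 and Gm9788. These pseudogenes had their own counts, from 1.33 to 4.71 CPM for Gm14058 and from 4.23 to 8.36 CPM for Gm9788, and how multiply mapped reads were treated is not given in the sources used here. Nanog shared 4.61% of its stretches, 60 of them with Nanog-ps1. Antisense transcripts overlap 14.1% of the exonic bases of Pou5f1 (Gm19553), 9.5% of those of Sall4 (Gm14261) and 5.86% of those of Lin28a (Gm13061), and the library kit does not keep the strand. Gm14261 was at 0.148 (2 counts) to 1.64 CPM, against at least 102 CPM for Sall4. Its level does not show how reads in the overlapping bases were assigned, and their part in the count of Sall4 was not tested. No shared stretch was found for Sox2, Sall1, Utf1 or Zfp281.

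After 4 hr the factors went different ways. Pou5f1, Lin28a, Utf1, Dppa4 and Zfp281 were lower at 24 hr than at 4 hr in both media, Sox2, Sall1 and Dppa2 were higher in both, and Nanog and Sall4 were near their 4 hr level in 2i.

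Pou5f1 was at 504.9 CPM in 2i at 4 hr (Wilson 95% interval 494.3 to 515.6, counting error only) and at 309.5, 326.8 and 337.6 CPM at 16, 24 and 32 hr. With vitC it was at 464.6, 292.1, 280.1 and 345.7 CPM at the same times. The 4 hr library was the highest in each medium and the later ones lay close together. Relative to 4 hr, the 24 hr library had a log2 ratio of -0.63 (2i) or -0.73 (vitC). Sox2, its binding partner, took the opposite course, with 144.8, 204.4, 263.3 and 325.5 CPM in 2i and 119.6, 211.8, 274.7 and 262.8 CPM with vitC. In 2i each library exceeded the one before it, while with vitC the 24 and 32 hr libraries were within counting error of each other (log2 ratio -0.06, 95% interval -0.16 to 0.03). From 4 to 24 hr Sox2 had a log2 ratio of 0.86 (2i) or 1.20 (vitC). No library after 4 hr was as low as either 4 hr library.

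Nanog had no common course in the 2 media. It was at 395, 568.9, 426.1 and 404.6 CPM in 2i, where the 16 hr library alone stood high, and at 436.7, 436.3, 420.5 and 347.5 CPM with vitC. Its log2 ratio of 24 hr against 4 hr came to 0.11 (2i) or -0.05 (vitC), with counting intervals of 0.06 to 0.16 and -0.13 to 0.02.

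Lin28a was lower at every later time in both media, at 683, 518.6, 413.6 and 339.8 CPM in 2i and 752.7, 446.8, 348.9 and 302.3 CPM with vitC. No 2 neighbouring times had overlapping counting intervals in either medium. The 32 hr library stood to the 4 hr library at a log2 ratio of -1.01 (2i) or -1.32 (vitC). Zfp281 was at 170.3, 140.8, 123.8 and 130.6 CPM in 2i and at 195.3, 121.2, 138.5 and 116.4 CPM with vitC, so that the 4 hr library was again the highest in each medium.

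Utf1 had the largest difference. It had 326 counts in 2i at 4 hr and 36, 27 and 28 counts at 16, 24 and 32 hr, or 18.97, 1.89, 2.11 and 2.08 CPM. With vitC it had 193, 13, 8 and 22 counts, or 14.4, 1.87, 1.72 and 1.83 CPM. The 4 hr libraries thus stood apart from the 6 later ones, which did not differ from each other beyond counting error. Already at 16 hr its log2 ratio to 4 hr stood at -3.22 in the 2i course (95% interval -3.72 to -2.72) and at -2.84 in the vitC course (-3.65 to -2.03).

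Dppa4 and Dppa2, whose proteins work as a pair, moved in opposite directions from 4 to 24 hr. Dppa4 was at 15.83, 8.36, 7.52 and 9.43 CPM in 2i and 12.68, 8.79, 6.22 and 12.41 CPM with vitC, lowest at 24 hr in both. Dppa2 was at 8.15, 14.51, 13.31 and 12.84 CPM in 2i and at 8.95, 13.11, 17.8 and 11.33 CPM with vitC, lowest at 4 hr in both. With vitC at 32 hr Dppa4 was within counting error of its 4 hr level. From 4 to 24 hr the pseudogene Gm14058 went from 4.71 to 1.33 CPM in 2i and from 2.54 to 1.93 with vitC. Gm9788 went from 4.36 to 4.23 CPM in 2i and from 5.3 to 8.36 with vitC. The part of pseudogene reads in the values of Dppa4 and Dppa2 was not tested. Over the 8 libraries the Pearson correlation of their log2 CPM was -0.953, a description of 8 points that share lanes, times and the pseudogene reads named above. The same measure was 0.954 for Pou5f1 and Utf1 and -0.947 for Sox2 and Lin28a.

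**Figure D2:**
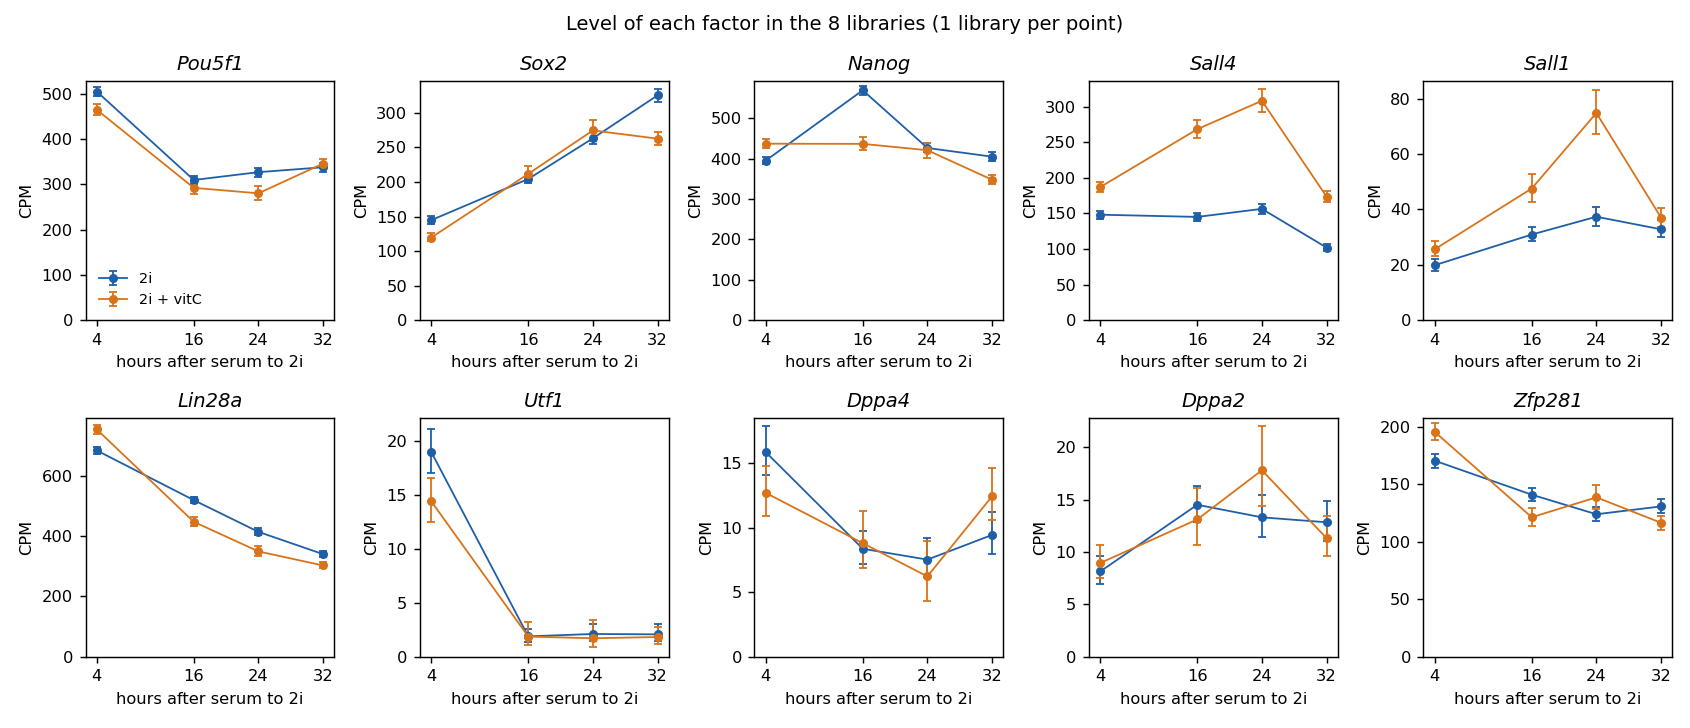
Level of each factor (CPM, linear axis from 0) against hours after the change from serum to 2i, in 2i and in 2i with vitC, 1 library per point, with Wilson 95% intervals of counting error as bars. Utf1 is at 18.97 and 14.4 CPM at 4 hr and at most 2.11 CPM later, Sox2 runs upward, Lin28a downward, and the vitC points of Sall4 lie above the 2i points at all 4 times.

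All genes were fitted with an additive edgeR model (time plus treatment), and its calls are given as counts only. The model leaves 3 residual degrees of freedom, so that its error measures how far both media part from one shared time course, and no spread between cultures enters. At 24 hr against 4 hr, 3 of the 10 factors were called higher (Sox2, Sall1 and Dppa2), beside 11.5% of all genes tested, and 5 lower (Pou5f1, Lin28a, Utf1, Dppa4 and Zfp281), beside 8.98% (adjusted p under 0.05, edgeR's quasi-likelihood test). The fitted log2 fold changes were 1.03 (standard error 0.15) for Sox2, 1.24 (0.20) for Sall1, 0.84 (0.24) for Dppa2, -0.68 (0.13) for Pou5f1, -0.92 (0.14) for Lin28a, -3.11 (0.33) for Utf1, -1.03 (0.27) for Dppa4 and -0.48 (0.15) for Zfp281. Nanog (0.02, standard error 0.15) and Sall4 (0.39, 0.16) were not called. With the share of Lars2 reads as a covariate, which overlaps with time, none of the 10 was called, and without the vitC 24 hr library 2 were higher (Sox2 and Sall1) and 2 lower (Lin28a and Utf1). The members were selected with these results known, so that nothing is read from these counts.

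Between 16 and 4 hr, 2 were called higher and 4 lower, beside 9.16% and 7.24% of all genes, and between 32 and 4 hr also 2 and 4, beside 13.5% and 11.8%. At 16 hr 0 were higher and 1 lower (Utf1) without the vitC 4 hr library, 0 and 2 without the vitC 16 hr library or with the Lars2 covariate, and at 32 hr 1 and 2 without either 32 hr library. Between 32 and 16 hr, within a lane, 0 were called in either direction by edgeR, beside 0.335% and 0.248% of all genes. DESeq2 and the GC and length correction called Lin28a lower, and without a filter Sox2 was called higher and Sall4 and Lin28a lower. The fitted log2 fold changes of this interval ran from -0.59 for Lin28a and -0.57 for Sall4 to 0.49 for Sox2. In the single-library ratios, 3 factors were at least 1.5 times higher at 24 hr than at 4 hr in 2i and 4 lower (background 17.1% and 12.1%), and with vitC 4 were higher and 4 lower (23.1% and 19.5%). At 16 hr the counts were 2 higher and 3 lower in 2i (17.6% and 14%) and 2 and 4 with vitC (20.3% and 16.5%), and at 32 hr they were 3 and 3 in 2i (19.5% and 16.1%) and 1 and 3 with vitC (22.2% and 17%).

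**Figure D3:**
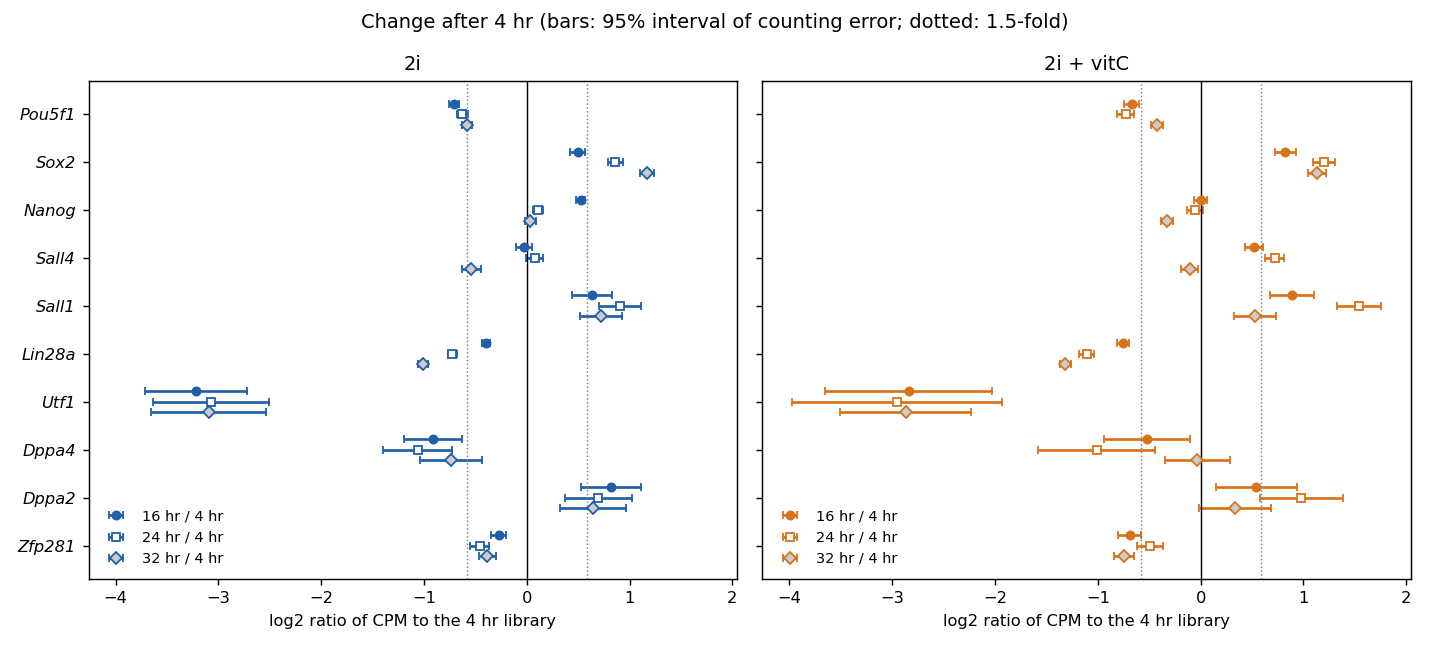
Log2 ratio of CPM at 16, 24 and 32 hr to the 4 hr library for each factor, in 2i and in 2i with vitC on a common axis, with 95% intervals of counting error and dotted lines at 1.5-fold. The 24 hr ratio of Utf1 is -3.07 in 2i and -2.96 with vitC, that of Sox2 is 0.86 and 1.20, and that of Sall4 is 0.08 in 2i and 0.72 with vitC.

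The bases upstream of the RefSeq start site are shown as sequence context for the pair with the closest profiles, Pou5f1 and Utf1, and for Sox2. They are from GRCm38.p6, 5′ to 3′ on the gene's strand, ending before the first annotated transcribed base. Sox2 ran against the pair (Pearson correlation -0.761 with Pou5f1 and -0.867 with Utf1). Dppa2 did so more strongly (-0.951 and -0.876) but had no matched RefSeq promoter. Matches to the GC box GGGCGG on either strand are in capitals. These windows are at chr17:35505782-35506017 for Pou5f1, chr7:139943606-139943788 for Utf1 and chr3:34649745-34649994 for Sox2, all on the plus strand, and they come from another genome build than the counts.
Pou5f1: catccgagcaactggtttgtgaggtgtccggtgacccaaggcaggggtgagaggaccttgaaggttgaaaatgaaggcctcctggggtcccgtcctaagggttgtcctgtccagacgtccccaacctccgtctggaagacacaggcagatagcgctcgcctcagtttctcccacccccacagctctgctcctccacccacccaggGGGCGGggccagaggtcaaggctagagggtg
Utf1: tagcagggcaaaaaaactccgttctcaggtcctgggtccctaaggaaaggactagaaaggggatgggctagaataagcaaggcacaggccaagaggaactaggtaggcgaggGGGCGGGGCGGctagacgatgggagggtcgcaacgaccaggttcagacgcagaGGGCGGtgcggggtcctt
Sox2: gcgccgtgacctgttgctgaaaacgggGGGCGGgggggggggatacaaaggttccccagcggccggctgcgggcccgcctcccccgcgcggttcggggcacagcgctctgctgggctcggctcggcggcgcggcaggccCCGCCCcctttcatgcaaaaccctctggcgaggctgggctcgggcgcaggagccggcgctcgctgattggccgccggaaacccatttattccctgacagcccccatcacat
The Utf1 window of 183 bases held 3 matches, of which the first overlaps the second, and 21.5% of 32851 start sites had at least 1 match in the same window. The Pou5f1 window (236 bases) held 1, where 30.8% of start sites had a match, and the Sox2 window (250 bases) held 2, where 32.7% did. The octamer ATGCAAAT, the SOX motif ACAATG and the TATA box TATAAA, each searched on both strands, had 0 matches in these 3 windows. Over all start sites 1.17%, 7.99% and 8.49% held them in 183 bases. The shares were 1.56%, 10.3% and 11.9% in 236 bases, and 1.6%, 10.7% and 12.4% in 250 bases. CpG dinucleotides numbered 8 in the Pou5f1 window, 10 in that of Utf1 and 27 in that of Sox2, against medians of 5, 4 and 6 over all start sites. The table held 2 start sites for Pou5f1, of which the outermost is shown.

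Sall4 (ENSMUSG00000027547) was chosen by its difference between the media, and its values are a description. In 2i it was at 148.3 CPM at 4 hr (142.7 to 154.2), 145.2 at 16 hr (139.9 to 150.8), 156.5 at 24 hr (149.8 to 163.6) and 102.1 at 32 hr (96.87 to 107.7). With vitC it was at 187.2 CPM at 4 hr (180 to 194.7), 268.6 at 16 hr (256.7 to 281), 308.6 at 24 hr (293.1 to 325) and 173.9 at 32 hr (166.6 to 181.6). All 4 vitC libraries lay above all 4 libraries in 2i, and in both media the 32 hr library was the lowest. Both highest values were those of the vitC libraries of 16 and 24 hr, which had the lowest totals and highest mitochondrial shares and also the highest Col1a1 (233 and 419 CPM), and the part of these in the values of Sall4 and Sall1 was not tested. The log2 ratio of vitC to 2i was 0.34 at 4 hr (95% interval 0.26 to 0.42), 0.89 at 16 hr (0.80 to 0.97), 0.98 at 24 hr (0.88 to 1.08) and 0.77 at 32 hr (0.67 to 0.87), or 1.26-, 1.85-, 1.97- and 1.70-fold.

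Sall1 (ENSMUSG00000031665) was at 19.84, 30.91, 37.35 and 32.81 CPM in 2i and at 25.59, 47.55, 74.84 and 37.07 CPM with vitC. It was higher with vitC at every time, but the media overlapped in range, and the 32 hr pair was within counting error. Its log2 ratios of vitC to 2i were 0.36, 0.62, 1.00 and 0.18 at 4, 16, 24 and 32 hr. From 24 to 32 hr with vitC the log2 ratio of Sall1 was -1.01 and that of Sall4 -0.83, whereas in 2i they were -0.19 and -0.62. The 24 and 32 hr libraries were in different lanes, so that lane and time cannot be told apart in this step.

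The other SALL genes were measured too and were looked at after the values of Sall4 were seen. Sall3 was low, at 4.66, 3.68, 4.62 and 1.56 CPM in 2i and at 9.47, 7.2, 8.15 and 4.33 CPM with vitC, higher with vitC at each time. Its fitted log2 fold change with vitC was 1.05 (standard error 0.23) and did not pass over all genes (adjusted p = 0.069, edgeR, n = 1 library per group), but it passed with DESeq2 (adjusted p = 0.022). Sall2 was at 18 to 33.3 CPM in 2i and 18 to 25.6 CPM with vitC, and its fitted vitC difference was -0.10 on the log2 scale (adjusted p = 0.80, edgeR, standard error 0.15).

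The other 8 factors stayed within 1.5-fold of their 2i level at all 4 times with vitC. Pou5f1 had log2 ratios of -0.12, -0.08, -0.22 and 0.03, and Sox2 of -0.28, 0.05, 0.06 and -0.31. Nanog had 0.14, -0.38, -0.02 and -0.22, the lowest value being at 16 hr, where Nanog in 2i stood high. Lin28a was slightly higher with vitC at 4 hr (0.14) and lower at the 3 later times (-0.21, -0.25 and -0.17), and Zfp281 ran between -0.22 and 0.20. Dppa4, Dppa2 and Utf1 had ratios between -0.39 and 0.41 with wide counting intervals, that of Utf1 at 24 hr reaching from -1.42 to 0.86.

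Of the 10 factors 0, 2, 2 and 1 were at least 1.5 times higher with vitC at 4, 16, 24 and 32 hr (Sall4 and Sall1, then Sall4 alone), beside 6.8%, 12.4%, 12% and 10.5% of all genes, and 0 were lower at any time, beside 8.44%, 11.2%, 12.2% and 8.11%. The median log2 ratio of the 10 was 0.14, -0.05, 0.02 and -0.17, beside 0.01, -0.02, -0.02 and 0.002 for all genes. With time as a block the fitted log2 fold change with vitC was 0.74 (standard error 0.12) for Sall4, at percentile 96.7 of all genes, and 0.54 (0.14) for Sall1, at percentile 93.4. The other 8 lay between -0.25 (Utf1) and 0.05 (Dppa2). Sall4 was the only factor called in this edgeR fit (DESeq2 and the fit without a filter also called Sall1), beside 0.107% of all genes called higher and 0.0603% called lower, and 0 factors were called for a vitC difference that changed with hours, where 0 genes (0%) were called in all (431 at an unadjusted p under 0.05 in edgeR, 1 called by DESeq2).

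**Figure D4:**
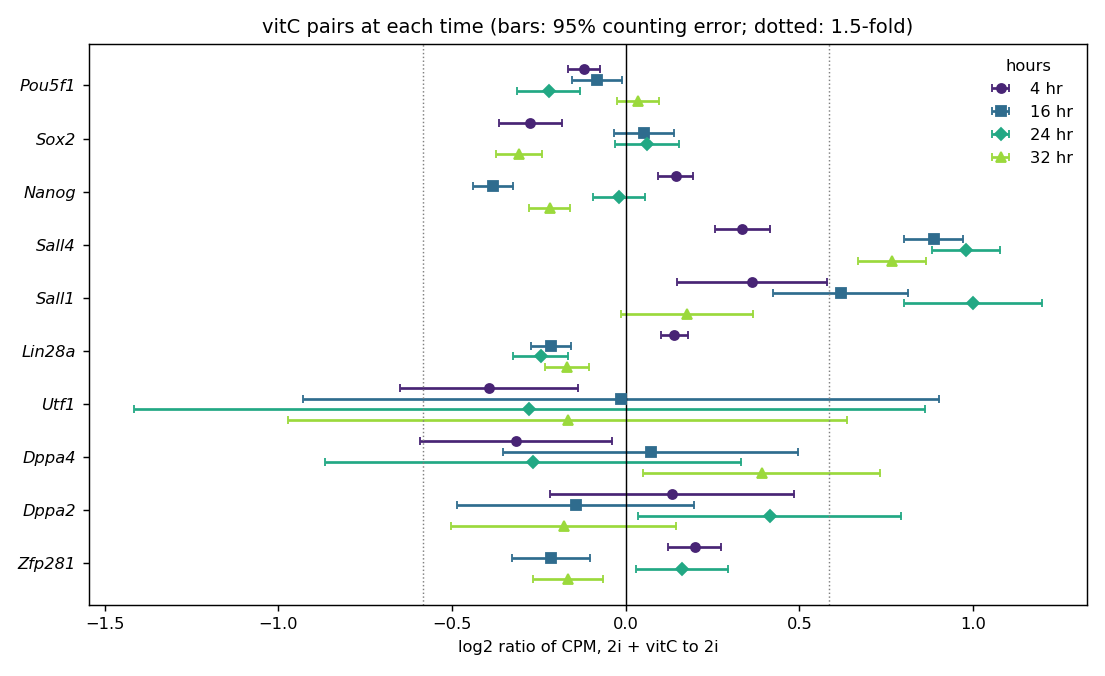
Log2 ratio of CPM in 2i with vitC to 2i for each factor at 4, 16, 24 and 32 hr, 1 library against 1, with 95% intervals of counting error and dotted lines at 1.5-fold. Sall4 is to the right of 0 at all 4 times (0.34 to 0.98), Sall1 passes 1.5-fold at 16 and 24 hr, and the other 8 factors stay within the dotted lines.

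The call of Sall4 was lost when any 1 library of 16, 24 or 32 hr was left out, when time was not a block, and when the Lars2 share was a covariate. It was kept with the GC and length offset. The fitted value was 0.66 to 0.88 with libraries left out and 0.63 with the covariate, and since Sall4 was chosen by this difference nothing is read from the call. The share of Lars2 reads was higher with vitC at 16, 24 and 32 hr and moved with the levels of most factors. Its log2 value had a Pearson correlation over the 8 libraries of 0.818 with the log2 CPM of Sall1, 0.802 with Sox2, 0.739 with Dppa2 and 0.406 with Sall4, and of -0.908 with Zfp281, -0.863 with Utf1, -0.847 with Pou5f1, -0.841 with Lin28a, -0.68 with Dppa4 and -0.214 with Nanog, as a description of 8 libraries that share times and lanes. In the 4 hr pair, with shares of 0.0277% and 0.0113%, Sall4 was 1.26-fold and Sall1 1.29-fold higher with vitC, and in the 24 hr pair, with 5.92% and 6.37%, 1.97-fold and 2.00-fold. Between the 16 and 24 hr libraries in 2i, with 0.206% and 5.92%, Sall4 was 1.08-fold and Sall1 1.21-fold higher at 24 hr. That pair also differed in time and lane, which cannot be told apart from the share. The part of these reads in the values was not tested.

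**Figure D5:**
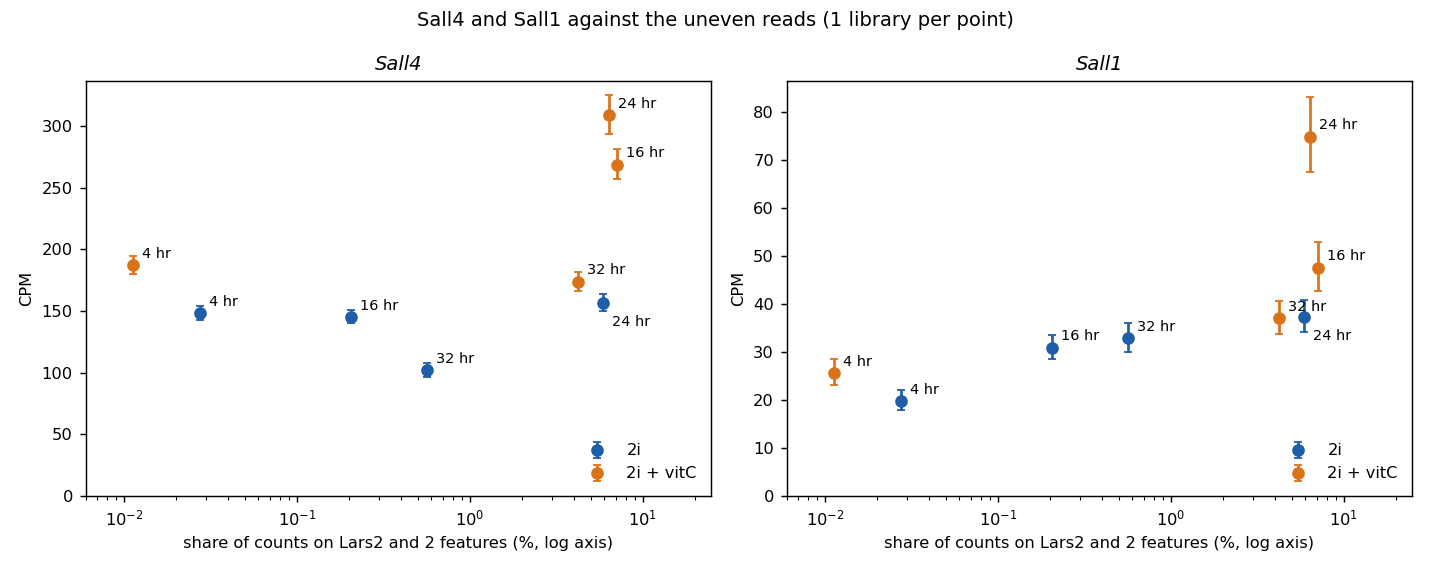
Sall4 and Sall1 (CPM, linear axis from 0) against the share of counts on Lars2, Gm23935 and ENSMUSG00000093077 (percent, log axis), 1 point per library with Wilson 95% intervals of counting error. At 4 hr both shares are under 0.03% and Sall4 is at 148.3 CPM in 2i and 187.2 with vitC, and at 24 hr both are near 6% with 156.5 and 308.6 CPM.

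The protein-coding genes whose log2 CPM was most like that of Sall4 over the 8 libraries, of 10448 compared, were Nfib (Pearson r = 0.985), Nfatc3 (0.977), Dicer1 (0.976), Trak2 (0.973) and Kmt2a (0.971). These 5 had merged exons of 7088 to 16750 bases, against 5536 for Sall4 and a median of 4481 over protein-coding genes tested. Kmt2a, a histone H3K4 methyltransferase, was at 32.1 to 46.6 CPM in 2i and 42.4 to 92.9 CPM with vitC, and Dicer1, the nuclease that matures microRNAs, at 105 to 137 CPM in 2i and 136 to 201 CPM with vitC. As these genes were picked for their likeness to Sall4, no p-value of vitC is given for them.

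Genes that work with these factors were read from lists, whose shares of calls stand beside 11.5% of all genes called higher and 8.98% called lower at 24 hr against 4 hr. Of the 13 genes of the NuRD complex that SALL4 recruits, 1 rose and 1 fell at 24 hr against 4 hr (7.69% each). Each share is 1 gene, so nothing is read from it beside the shares of all genes. The median log2 fold change was 0.02, beside 0.01 for all genes. Mta1, a NuRD scaffold subunit, rose by 1.26 (standard error 0.28, adjusted p = 0.0087, edgeR), a value of 0.68 to 1.95 with libraries left out. The media differed, since Mta1 went from 21.1 to 31.2 CPM in 2i and from 15.9 to 66.9 CPM with vitC. Rbbp7, a histone chaperone subunit, fell by 0.51 on the log2 scale (adjusted p = 0.018, edgeR). With vitC 0 of the 13 passed in either direction, beside 0.107% and 0.0603% of all genes, with a median of 0.07.

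Of 16 tested relatives of the factors (paralogues, and Dppa genes that share the name without being homologous) 5 rose between 4 and 24 hr (31.2%) and 0 fell (median 0.21). They were Sox13 (2.03), Sox3 (1.5), Sox12 (1.19) and Sox4 (1.17, named after its value was seen to complete the count), all of the SOX family, and Dppa3 (1.41), a maternal factor, with edgeR adjusted p-values of 0.00055, 0.020, 0.020, 0.00066 and 0.0024. In the pathway of LIN28 and let-7, 3 of 15 genes rose (20%) and 1 fell (6.67%), with a median of 0.21. Arid3b, a let-7 target, rose by 0.96 (adjusted p = 0.0019, edgeR), and Drosha and Igf2bp2 by 0.71 and 0.60 (adjusted p = 0.038 and 0.033), while Dgcr8, the partner of Drosha in microRNA processing, fell by 0.76 on the log2 scale (adjusted p = 0.0029). The calls of Drosha and Igf2bp2 were lost with the GC and length offset and in 4 of 8 fits with 1 library left out. Lin28b, the relative of Lin28a, was at 148 to 197 CPM in 2i and 124 to 194 CPM with vitC.

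The 8 tested genes of the 2-cell programme that depends on DPPA2 and DPPA4 had 0 calls between 4 and 24 hr, with a median log2 fold change of -0.47. Of 31 other factors of the shared network 5 rose (16.1%) and 4 fell (12.9%), with a median of -0.01. Tcf7l1, a repressor of WNT targets, rose by 2.13 (adjusted p = 0.011, edgeR), and Trim28, a corepressor of zinc finger proteins, fell by 0.88 on the log2 scale (adjusted p = 0.0051, edgeR). Hcfc1 and Rybp rose by 0.80 and 0.77 (adjusted p = 0.019 and 0.0053, edgeR).

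Naive and primed genes give the setting in which the shared factors were measured. Of 10 naive factors 6 rose (60%) and 1 fell (10%) between 4 and 24 hr, with a median of 0.57, among them Klf5 (1.97, adjusted p = 0.0034, edgeR) and Tfcp2l1 (1.08, adjusted p = 0.00069, edgeR), and Nr0b1 fell by 1.47 on the log2 scale (adjusted p = 0.0015, edgeR). Tbx3 rose by 0.95 (adjusted p = 0.0022, edgeR). Of 7 tested primed genes 3 fell (42.9%) and 1, Sox3, rose (14.3%), with a median of -1.13. Dnmt3l and Dnmt3b, of de novo DNA methylation, fell by 3.86 and 2.08 on the log2 scale (adjusted p = 1.4e-05 and 9e-06, edgeR), and the mesoderm gene T fell by 1.13 (adjusted p = 0.0087, edgeR). Leaving out the vitC 4 hr library ended the calls of Mta1, Rbbp7, Sox3, Sox12, Drosha, Igf2bp2, Tcf7l1, Trim28, Hcfc1, Rybp, Klf5 and T, and leaving out the vitC 24 hr library those of the same genes except T, and of Dgcr8 and Tbx3. Without the 2i 24 hr library Rbbp7 and T were not called. The calls of Arid3b, Dnmt3b, Dnmt3l, Dppa3, Nr0b1, Sox13 and Tfcp2l1 held in all 8 such fits, and Sox4 was not refitted. With the Lars2 share as a covariate, of the 21 list genes other than Sox4 named here for 24 hr against 4 hr, Dnmt3b and Dnmt3l passed (adjusted p = 0.011 and 0.020, edgeR). With vitC 0 genes of any of these lists passed in the edgeR fit, beside 0.107% of all genes called higher and 0.0603% lower. At shares this low, nothing is read from the 0. The result also depended on the fit, since Lefty1, Dicer1 and Sall3 were called with DESeq2 and with no filter.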

How the data were processed

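The authors deposited 1 table of raw counts per library, with 37263 Ensembl genes in each. E14 RNA was depleted of rRNA, prepared with a kit that does not keep the strand and sequenced as single-end reads of 50 bp. Per the labels, reads were aligned with GSNAP to NCBIM37/mm9 and counted with HTSeq. The annotation release, the strand setting and the treatment of multiply mapped reads are not given in the sources used here. Samples were grouped by the time and medium in their labels, with 1 library per group, and 0 pairs of libraries held identical counts. Symbols, lengths and GC content came from GENCODE M21 (32604 identifiers matched), and promoters from RefSeq (7 of the 10 factors matched).

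Genes that reached 1 CPM in 2 or more libraries were tested with edgeR 4.0.16 (R 4.3.3), with TMM scaling, an additive model of time and treatment, the quasi-likelihood test and Benjamini-Hochberg adjustment at 0.05. The script was tested on simulated data. Ratios between single libraries used a prior count of 2 and a limit of 1.5-fold. Intervals are Wilson 95% intervals for levels and normal-approximation ones on the log scale for ratios, and cover counting error only, since reads carry no molecular identifiers. The members and lists were chosen with earlier results of these data known. Up to 4 genes with the largest change among those that passed were named per list, and the 5 genes most like Sall4 among protein-coding genes of at least 5 CPM. Alternatives were RLE and upper-quartile scaling, DESeq2 1.42.0, no filter or 5 CPM, a prior count of 0.5, fits without the treatment or time term, the Lars2 features removed or their share as covariate, a GC and length offset, and each library left out.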

Additional observations from a re-analysis of the deposited data

How the results depend on the processing

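The number of genes called depended on the model more than on scaling. At 16 hr against 4 hr it was 2448, and 1289 without a treatment term and 801 with the Lars2 share as covariate. At 24 hr against 4 hr it was 3061, and 1889 and 87 in the same fits, and at 32 hr against 4 hr it was 3784, and 2449 with the covariate. At 32 hr against 16 hr it was 87 (50 higher and 37 lower), and 239 with DESeq2, 589 with no filter, 11 without a treatment term, and 54 higher and 71 lower with the GC and length offset. With vitC it was 25, and 299 with DESeq2, 690 with no filter, 13 with a filter of 5 CPM, 60 without the Lars2 features, 0 without a time block (739 at an unadjusted p under 0.05, edgeR) and 0 with the covariate (1065 at an unadjusted p under 0.05, edgeR). For the change with hours it was 0, and 1 with DESeq2 and 5 with no filter. With libraries left out the counts were 540 to 2062, 752 to 3356, 1401 to 4090 and 2 to 137 for the 4 time comparisons in the order given, 0 to 415 for vitC and 1 to 23 for the change with hours. The cause was not tested. The vitC value of Sall2, -0.10, ran from -0.22 to 4e-04 with libraries left out. The vitC fit pairs the libraries of each time through its time block, and the labels give no replicate numbers for another pairing.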
